A study of Mus musculus with 21 samples.

Results

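Hematopoietic stem cells (HSC) carrying the proline-to-leucine change P216L in Etv6 were compared with wild-type (WT) HSC. The members were chosen by their library names, as the 3 HSC P216L libraries and the 3 HSC WT libraries, and make up 6 of the 21 libraries of the series. HSC and megakaryocyte-erythroid progenitors (MEP) of mouse bone marrow had been isolated by flow cytometry, and their RNA was sequenced after low-input SMART-Seq amplification. The series also held 2 HSC libraries of Etv6 S211I, 3 HSC libraries carrying S211I and P216L together, and 10 MEP libraries. The genotype field of the labels writes P211I where the sample titles write S211I, and the title form is used here. The labels give no age, sex, strain, zygosity or sorting markers. Nor do they tie libraries to animals, and the spread that the tests measure may therefore be partly technical.

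Etv6 is a transcription factor of the ETS family that acts mainly as a repressor. It binds DNA through its ETS domain, associates with itself through its pointed domain, and recruits co-repressor complexes. In mice it is needed to keep HSC in adult bone marrow and for late steps of megakaryocyte maturation, and in people germline ETV6 variants are linked to low platelet counts and a predisposition to leukemia. HSC in adult marrow divide rarely, whereas MEP and the erythroid precursors that follow divide often and make heme and red-cell membrane proteins. The title of the study concerns a germline ETV6 mutation and nuclear export of the protein.

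The 3 P216L libraries held 406023, 837664 and 850139 counts, and the 3 WT libraries held 151215, 410304 and 480421. Genes with at least 1 count numbered 3988, 8145 and 8726 in P216L HSC, and 5448, 6418 and 8013 in WT HSC. P216L replicate 1 therefore held the fewest genes of all 6, although its total was close to that of WT replicate 2. After all 6 were thinned at random to 151215 counts it still held 3692 genes, against 7336 and 7796 in the other P216L libraries and 5448 to 7362 in WT. A count of 0 allows up to 3 counts, which is 7.39, 3.58 and 3.53 CPM (counts scaled by the library total) in the P216L libraries and 19.8, 7.31 and 6.24 CPM in WT. These limits cover counting error alone, and a gene at 0 in a library was not detected rather than shown to be absent. P216L replicate 1 had 60.9% of tested genes at 0, against 40.0% in WT replicate 2. Why it held fewer genes at a like depth was not tested. Fewer cells of a type and less RNA per cell cannot be told apart in bulk libraries.

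**Figure D1:**
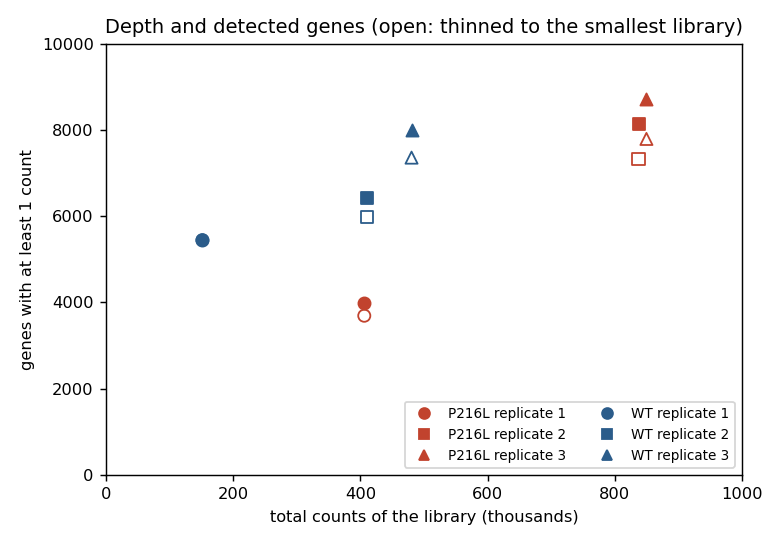
Total counts (horizontal axis) and genes with at least 1 count (vertical axis) in each HSC library of the 2 genotypes, P216L in red and WT in blue. Filled points give the libraries as deposited and open points the genes left after thinning to 151215 counts. P216L replicate 1 lies lowest for genes, at 3988 as deposited and 3692 after thinning.

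A pair of libraries stood apart from the others of their genotype. P216L replicate 3 was nearest to the MEP profile, with a correlation of log2 CPM with the mean MEP library of 0.643 across 9471 genes, against 0.326 and 0.491 for P216L replicates 1 and 2 and 0.270 to 0.393 for the WT libraries. Genes are not independent replicates, and these correlations describe the libraries. P216L replicate 3 also held the most counts and detected genes of the libraries compared, at 850139 and 8726. Across the HSC libraries the correlation mostly rose with the number of genes detected, and how far detection set it was not tested. P216L replicate 1 carried 19275 CPM over 18 stromal marker genes, against 19.1 and 54.1 CPM in the other P216L libraries and 298, 3105 and 749 CPM in WT. Collagen and matrix-associated genes made up most of it, with 9007 CPM of Col1a2, 3813 CPM of Col1a1, 3298 CPM of Sparc and 1783 CPM of Gpx3. Values are given per library throughout, and classes are also given without P216L replicate 3 or 1 where that moves them.

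The labelled cell type was checked against 28 HSC surface and signalling genes. Their summed level was 4327, 4871 and 2748 CPM in P216L HSC and 6726, 8118 and 8482 CPM in WT HSC, all above the 766 to 1103 CPM of the 10 MEP libraries. Kit, the stem cell factor receptor, was detected in all 6 HSC libraries, as was Procr, the endothelial protein C receptor used to sort HSC. Slamf1, which encodes the HSC marker CD150, was at 0 in all 6, and Fgd5 had counts of at most 3.58 CPM. These 4 genes were named after their values were seen.

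Etv6 itself had 251, 69.2 and 164 CPM in P216L HSC and 522, 246 and 200 CPM in WT HSC. Its log2 fold change, P216L over WT, was -0.84 ± 1.25 (SE), with an adjusted p of 0.96 in edgeR's quasi-likelihood test, and the groups overlapped. An amino acid substitution leaves the transcript in place, so this count does not check the genotype labels.

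Across 9471 genes tested with edgeR, 10 (0.106%) passed an adjusted p of 0.05, the threshold used throughout for a called gene. All 10 were higher in P216L HSC and 0 were lower. They were Rrm1, Rrm2 and Mcm2 of DNA replication, the histone variant gene H2az1, the mitotic genes Nde1 and Racgap1, the nuclear import gene Kpna2, the heme synthesis gene Fech, and Mtfr1 and Golm1. At an unadjusted p under 0.05, 1223 genes (12.9%) passed, 737 (7.78%) higher and 486 (5.13%) lower. The genotypes did not overlap in CPM in 905 genes (9.56%), with P216L above WT in 461 (4.87%) and below in 444 (4.69%), so the whole table held nearly as many separated genes in either direction. The smallest two-sided p that an exact permutation of 3 against 3 libraries can give is 0.1.

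The strongest call was Rrm1, which encodes the large subunit of ribonucleotide reductase, the enzyme that makes deoxynucleotides for DNA synthesis. It had 564, 664 and 1443 CPM in P216L HSC, from 229, 556 and 1227 counts, and 13.2, 2.44 and 58.3 CPM in WT HSC, from 2, 1 and 28 counts. The lowest P216L library was higher than the highest WT library, and the exact 95% Poisson interval of WT replicate 1 ended at 47.8 CPM. Mean levels were 890 ± 481 CPM in P216L HSC and 24.6 ± 29.6 CPM in WT HSC (SD, n = 3 each). The log2 fold change was 5.23 ± 0.88 (SE), with an adjusted p of 2.9e-05 in edgeR. Rrm1 was called in all 6 edgeR fits that left out 1 P216L or WT library. These fits kept the other HSC genotypes, and 0 genes were called when the 2 groups were fitted alone. Without the 3 HSC libraries nearest to MEP, 0 of the 10 called genes passed.

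Rrm2, the small subunit of the same enzyme, whose level rises in S phase, had 594, 870 and 2453 CPM in P216L HSC and 0, 2.44 and 121 CPM in WT HSC. The groups did not overlap, and WT replicate 3 held nearly all of the WT counts. Its log2 fold change was 5.0 ± 0.98 (SE), with an adjusted p of 0.0028 in edgeR. Mcm2, a subunit of the replicative helicase, had 520, 620 and 1444 CPM in P216L HSC and 0, 0 and 64.5 CPM in WT HSC. Here too WT replicate 3 was the only WT library with counts. The log2 fold change of Mcm2 was 5.29 ± 1.06 (SE), with an adjusted p of 0.0024 in edgeR. With P216L replicate 3 left out, the adjusted p in edgeR was 0.15 for Rrm2 and 0.15 for Mcm2, with log2 fold changes of 4.0 and 4.52. Of the 6 edgeR fits that left out 1 library, Rrm2 was called in 3 and Mcm2 in 2, so other libraries mattered too.

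H2az1, which encodes the histone variant H2A.Z placed at promoters, had the tightest values of the called genes. It had 1919, 1468 and 2300 CPM in P216L HSC and 265, 370 and 354 CPM in WT HSC, with means of 1896 ± 416 CPM in P216L HSC and 329.6 ± 57.0 CPM in WT HSC (SD, n = 3 each). It was the only called gene with at least 10 counts in each of the 6 libraries. The log2 fold change was 2.66 ± 0.51 (SE), with an adjusted p of 0.00073 in edgeR. H2az1 was called in all 6 fits without 1 library, with the same limits as Rrm1.

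Kpna2, importin alpha, which carries proteins with a classical nuclear localisation signal into the nucleus and is abundant in dividing cells, had 1030, 516 and 1557 CPM in P216L HSC. WT HSC had 0, 151 and 237 CPM. The groups did not overlap, and the log2 fold change was 3.03 ± 0.68 (SE), with an adjusted p of 0.014 in edgeR. Fech encodes ferrochelatase, which puts iron into protoporphyrin in the last step of heme synthesis. It had 2586, 455 and 2618 CPM in P216L HSC and 13.2, 285 and 393 CPM in WT HSC. P216L replicate 2 was only just above WT replicate 3, and the log2 fold change was 3.03 ± 0.64 (SE), with an adjusted p of 0.0037 in edgeR. With P216L replicate 3 left out, the adjusted p in edgeR was 0.26 for Kpna2 and 0.26 for Fech. Each was called in only 2 of the 6 edgeR fits that left out 1 library.

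The other 4 called genes had 0 counts in all 3 WT libraries, which allows 3 counts over the group, so only a lower bound of the fold can be given. It sets the mean P216L CPM against 3 counts in the pooled WT total, or 2.88 CPM. This is a bound only if the WT libraries share a level, since WT replicate 1 alone allows 19.8 CPM. Nde1, a dynein regulator at centrosomes and kinetochores, had 724, 296 and 188 CPM in P216L HSC and was at least 140-fold higher. Racgap1, a subunit of centralspindlin that acts in cytokinesis, had 1005, 115 and 233 CPM and was at least 157-fold higher. The adjusted p in edgeR was 0.024 for Nde1 and 0.024 for Racgap1. Each of these calls was lost in 5 of the 6 edgeR fits that left out 1 library, and held only without P216L replicate 2, with adjusted p of 0.049 for Nde1 and 0.022 for Racgap1. Golm1, a Golgi membrane protein, had 914, 3.58 and 144 CPM, at least 123-fold higher, with an adjusted p of 0.015 in edgeR. Mtfr1, a mitochondrial fission regulator, had 0, 177 and 561 CPM, at least 85.4-fold higher, with an adjusted p of 0.0028 in edgeR. Golm1 and Mtfr1 rest on part of the P216L group, since Golm1 had 3 counts in replicate 2 and Mtfr1 had none in replicate 1, where its values overlap with WT.

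**Figure D2:**
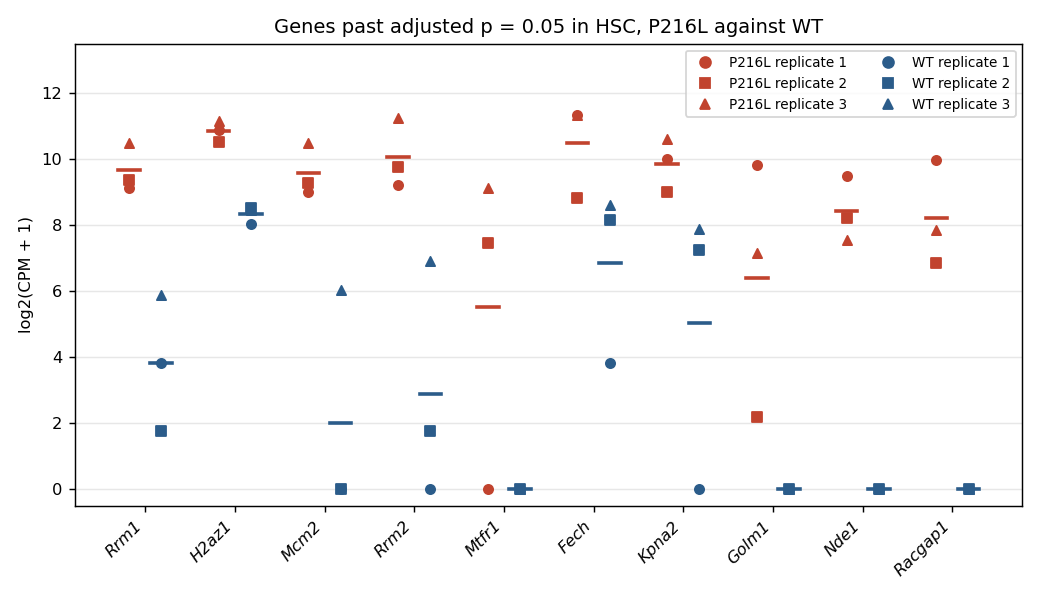
Levels of the 10 called genes in each HSC library as log2(CPM + 1), P216L left of WT; each point is a library and each bar the mean of log2(CPM + 1) over 3 libraries. P216L points lie above all WT points for 9 of the 10 genes, and Mtfr1 has 1 P216L library at 0.

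The promoters of called genes are shown because all 10 were called in the same direction, although their levels followed different orders across the P216L libraries. RefSeq promoter entries on GRCm38.p6 were found for 8 of the 10 called genes, all but Fech and Mtfr1. The 200 bases upstream of the annotated start are printed for 4 of them in the direction of transcription. Capitals mark CCAAT on either strand, the box bound by the factor NF-Y, so that it reads ATTGG on the opposite strand. The windows are chr7:102441495-102441694 on the plus strand for Rrm1, chr12:24708054-24708253 on the plus strand for Rrm2, chr6:88898781-88898980 on the minus strand for Mcm2, and chr3:137864287-137864486 on the plus strand for H2az1.
Rrm1: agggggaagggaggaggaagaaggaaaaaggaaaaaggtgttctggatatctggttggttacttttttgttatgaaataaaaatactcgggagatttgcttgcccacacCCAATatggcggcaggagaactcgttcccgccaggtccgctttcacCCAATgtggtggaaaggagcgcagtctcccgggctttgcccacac
Rrm2: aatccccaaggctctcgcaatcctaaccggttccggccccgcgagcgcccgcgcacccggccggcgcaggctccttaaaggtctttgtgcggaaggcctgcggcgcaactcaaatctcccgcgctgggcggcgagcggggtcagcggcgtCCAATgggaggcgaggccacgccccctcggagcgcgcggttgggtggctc
Mcm2: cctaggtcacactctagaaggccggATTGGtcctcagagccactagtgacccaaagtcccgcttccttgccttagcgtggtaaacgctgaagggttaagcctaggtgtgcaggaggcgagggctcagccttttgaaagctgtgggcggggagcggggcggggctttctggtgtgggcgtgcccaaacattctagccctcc
H2az1: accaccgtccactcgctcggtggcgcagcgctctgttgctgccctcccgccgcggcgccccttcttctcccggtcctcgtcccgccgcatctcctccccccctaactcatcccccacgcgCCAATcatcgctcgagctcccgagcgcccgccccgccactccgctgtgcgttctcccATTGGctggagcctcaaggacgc
The CCAAT pentamer began 45 and 91 bases upstream of the annotated start of Rrm1, 50 bases upstream of Rrm2, 175 bases upstream of Mcm2, and 23 and 80 bases upstream of H2az1. Within 250 bases it was present in 8 of the 8 called promoters, against 34.5% of all 27025 promoters and 37.4% of the 7688 promoters of tested genes. In all, 11 short strings were searched on both strands, and they were chosen with the called genes known. Of the E2F-type strings, TTCCCGC was in 1 of the 8 promoters (7.32% of tested genes) and its extension TTTCCCGC in 0 (1.87%). The string TTTGGCGC was in 0 (1.01%), and GGCGGGA was in 3 (19.1%). Of the ETS-type strings, CCGGAA was in 3 of the 8 (25.4%), its extension CCGGAAG in 2 (16.01%) and the further extension CCGGAAGT in 1 (6.89%). The GATA string AGATAA was in 1 (5.68%), the cell-cycle promoter string TTTGAA was in 2 (10.8%), and the KLF string CCACACCC was in 1 (3.50%). Extensions hold the shorter strings, so these counts overlap. A match describes letters in a window and not a bound site.

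Genes of DNA replication and nucleotide supply were higher as a class in P216L HSC. The summed level of 57 genes was 7830, 11742 and 21638 CPM in P216L HSC and 3247, 4155 and 6153 CPM in WT HSC. These sums did not overlap on library totals. Under the TMM size factors of the tests, 1.24 for P216L replicate 1 and 0.97 for WT replicate 3, these 2 libraries were no longer separated. Of 55 tested members, 49 had a log2 fold change above 0, against 52.9% of all genes tested, and 3 were called. The list median was 1.93, or 1.87 with genes at 0 in a group set to their bound, and the median of all genes was 0.13, or 0.10 with bounds. The groups did not overlap in 10 members, all higher in P216L, and in 0 lower, against 4.87% and 4.69% of all genes. Without P216L replicate 3, the library nearest to MEP, 34 of 55 members were above 0, and the list median exceeded that of all genes by 1.01, against 1.80 with all libraries.

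Members of this class whose groups did not overlap came from several steps of replication, and they are named for that reason, after their values were seen. Mcm3, another subunit of the helicase, had 631, 457 and 528 CPM in P216L HSC and 6.61, 136 and 22.9 CPM in WT HSC. Rfc4, a subunit of the clamp loader, had 584, 485 and 378 CPM in P216L HSC and 0, 183 and 10.4 CPM in WT HSC. Atad2, a chromatin-bound ATPase, had 704, 103 and 226 CPM in P216L HSC and was at 0 in WT HSC, with an adjusted p of 0.070 in edgeR. None of these genes was called. Other subunits overlapped, as Mcm5 had 2.46, 166 and 486 CPM in P216L HSC and 119, 178 and 489 CPM in WT HSC. Pcna, the sliding clamp, had 291, 356 and 579 CPM in P216L HSC and 13.2, 370 and 379 CPM in WT HSC. The class thus did not move as a block of like changes.

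The mitosis and cytokinesis class summed to 6694, 7128 and 16204 CPM in P216L HSC and 4265, 5021 and 4342 CPM in WT HSC. P216L replicate 3 was more than the other P216L libraries together, and the groups still did not overlap. Of 48 tested members, 41 were above 0, 2 were called (Nde1 and Racgap1) and the median log2 fold change was 1.78, or 1.59 with bounds. Prc1, which bundles the midzone of the spindle, had 638, 614 and 507 CPM in P216L HSC and 317, 0 and 0 CPM in WT HSC. Tpx2, a spindle assembly factor, had 14.8, 212 and 409 CPM in P216L HSC and 0, 2.44 and 2.08 CPM in WT HSC. Without P216L replicate 3, 29 of the 48 were above 0, and the list median exceeded that of all genes by 0.63, against 1.65 with all libraries. Cyclins, CDKs and CDK inhibitors overlapped in their sums, at 6113, 1595 and 3984 CPM in P216L HSC and 1521, 2359 and 2271 CPM in WT HSC. Of the 19 tested members 12 were above 0 and 0 were called. Their median minus that of all genes, 1.36, became -0.12 without P216L replicate 1 and 0.39 without P216L replicate 3.

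Erythroid membrane, carbonic anhydrase and globin genes had the highest list median of the classes named here, 2.69 on the log2 scale. Their summed level was 11366, 10273 and 48117 CPM in P216L HSC and 7129, 6420 and 7989 CPM in WT HSC, so P216L replicate 3 carried most of the difference in means. Of 34 tested members, 29 were above 0 and 0 were called. Without P216L replicate 3, 21 of 33 were above 0, and the list median exceeded that of all genes by 0.70, against 2.56 with all libraries. Car2, a carbonic anhydrase, had 4845, 5310 and 10463 CPM in P216L HSC and 1984, 3597 and 3888 CPM in WT HSC. This gene was separated in all libraries on library totals. Under the TMM factors, 1.24 for P216L replicate 1 and 0.97 for WT replicate 3, these 2 libraries were no longer separated. The log2 fold change of Car2 was 1.29 ± 0.45 (SE), with an adjusted p of 0.37 in edgeR. Cldn13, a claudin found in mouse erythroid cells, had 49.3, 150 and 492 CPM in P216L HSC and was at 0 in WT HSC, at least 80.0-fold higher, with an adjusted p of 0.070 in edgeR. Blvrb, biliverdin reductase B, had 315, 93.1 and 547 CPM in P216L HSC and 6.61, 0 and 27.1 CPM in WT HSC.

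A globin gene and a major membrane protein gene were high in P216L replicate 3 and not in the other P216L libraries. Hbb-bs, a beta globin gene, had 877, 190 and 8078 CPM in P216L HSC and 1468, 53.6 and 302 CPM in WT HSC. Slc4a1, the anion exchanger of the red cell, had 0, 0 and 594 CPM in P216L HSC and was at 0 in WT HSC. The globin genes have near-identical copies, so reads could be split between them in estimated counts. The values of these genes in P216L replicates 1 and 2 lay within or close to the WT range. The erythroid factor list, which holds transcription factors together with receptors and a kinase, was evenly split, since 10 of 20 were above 0, with a median of -0.09, and 0 were called. That median minus the median of all genes was -0.22, and 1.74 without WT replicate 3. Klf1, the master regulator of the late erythroid program, had 1086, 549 and 463 CPM in P216L HSC and 0, 75.6 and 129 CPM in WT HSC (adjusted p = 0.20, edgeR). E2f2, which acts in the cell cycle of erythroid precursors, had 17.2, 5.97 and 152 CPM in P216L HSC and was at 0 in WT HSC.

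Heme synthesis and iron genes summed to 10862, 9293 and 18265 CPM in P216L HSC and 7334, 6456 and 7204 CPM in WT HSC. Of 31 tested members, 25 were above 0, 1 was called (Fech), and the median log2 fold change was 1.36. Fth1, the ferritin heavy chain that stores iron, had 2310, 2188 and 3583 CPM in P216L HSC and 1038, 1562 and 995 CPM in WT HSC. Its log2 fold change was 1.36 ± 0.41 (SE), with an adjusted p of 0.20 in edgeR. Abcb6, a porphyrin transporter, had 249, 222 and 133 CPM in P216L HSC and 6.61, 0 and 0 CPM in WT HSC. In contrast to the globins, Fth1 and Abcb6 were separated in every P216L library. In the fit without P216L replicate 3, 22 of 31 members were above 0, with a median 1.10 over that of all genes, and without WT replicate 3 the median was 2.23 over it, against 1.22 with all libraries.

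Nuclear-encoded genes of oxidative phosphorylation, which build the respiratory chain and ATP synthase, had even sums within each genotype on library totals. They summed to 12177, 12030 and 12240 CPM in P216L HSC and 7744, 7743 and 8357 CPM in WT HSC. On library totals all P216L libraries were higher than all WT libraries. The margin was larger than the range of either group, and P216L replicate 3 did not stand out. Under the TMM factors the groups still did not overlap, but the sums were less even within each genotype. The margin was then smaller than the range of either group, and P216L replicate 3 was the highest. Of 41 tested members 35 were above 0, 8 were separated upward and 0 downward, against 4.87% and 4.69% of all genes, and the median log2 fold change was 0.95. None was called. Cox4i1, a subunit of cytochrome c oxidase, had 717, 292 and 422 CPM in P216L HSC and 6.61, 105 and 177 CPM in WT HSC (adjusted p = 0.38, edgeR). Atp5b, the catalytic subunit of ATP synthase, had 1882, 1202 and 1680 CPM in P216L HSC and 1475, 536 and 450 CPM in WT HSC, with overlap. Without P216L replicate 3, 31 of 41 were above 0, with a list median 0.99 above that of all genes, and without WT replicate 3 it was 0.49 above, against 0.82 with all libraries.

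Histone variants and chaperones were also even on library totals, with 14056, 14711 and 15087 CPM in P216L HSC and 10422, 10458 and 10360 CPM in WT HSC. Under the TMM factors these sums too were less even within each genotype, and P216L replicate 1 lay only just above WT replicate 3. Of 20 tested members 14 were above 0, and H2az1 was the called member. Npm1, a histone and ribosome chaperone, had 786, 911 and 523 CPM in P216L HSC and 212, 195 and 437 CPM in WT HSC (adjusted p = 0.38, edgeR). Hmgb2, a chromatin protein of dividing cells, had 933, 676 and 1821 CPM in P216L HSC and 655, 480 and 670 CPM in WT HSC. Cytosolic ribosomal protein genes summed to 13127, 12962 and 13043 CPM in P216L HSC and 11084, 10302 and 10131 CPM in WT HSC, with 38 of 48 above 0, a median of 0.45 and 0 called. Over the median of all genes this was 0.32, and 0.12 or 0.03 without WT replicate 1 or 3. Many ribosomal protein genes have processed pseudogenes, which could take part of their counts. Genes of Myc and ribosome assembly summed to 6995, 7566 and 5471 CPM in P216L HSC and 3016, 5035 and 5406 CPM in WT HSC, with 20 of 31 above 0.

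The nuclear transport list was examined because the study concerns nuclear export. It summed to 5574, 4959 and 7459 CPM in P216L HSC and 2381, 2466 and 5701 CPM in WT HSC, with overlap through WT replicate 3. Of 33 tested members 22 were above 0, the median was 0.88 and Kpna2 was the called member. The median over that of all genes, 0.75, became 0.22 without P216L replicate 3 and 2.36 without WT replicate 3. Nup85, a nuclear pore scaffold protein, had 433, 302 and 409 CPM in P216L HSC and 6.61, 105 and 223 CPM in WT HSC. Nup62, a protein of the central pore channel, had 438, 123 and 291 CPM in P216L HSC and 126, 0 and 2.08 CPM in WT HSC, with overlap.

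**Figure D3:**
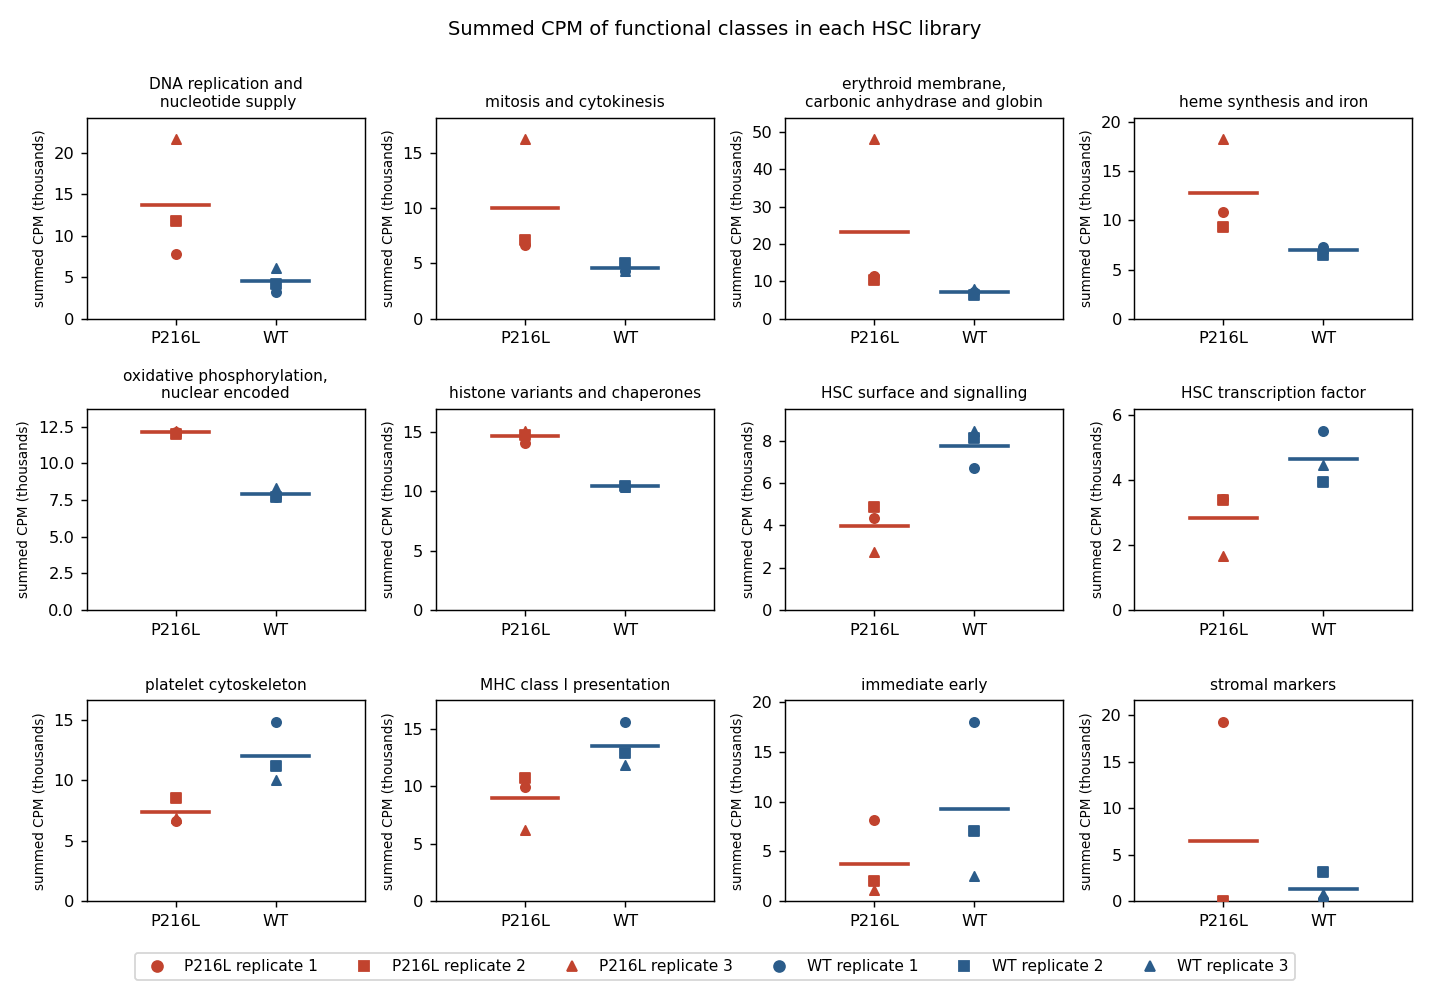
Summed CPM of 12 gene classes in each HSC library, P216L left of WT; each point is a library, with its replicate number given by its shape, and each bar the mean of 3 libraries. Oxidative phosphorylation and histone genes are tight and separated on library totals. Erythroid genes are high in P216L replicate 3 (48117 CPM), and stromal markers are high in P216L replicate 1 (19275 CPM).

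As classes, genes of the stem cell surface, of platelets and their cytoskeleton and of antigen presentation were lower in P216L HSC. Their sums did not overlap on library totals, although 0 genes were called lower. Under the TMM factors, 0.95 for P216L replicate 2 and 1.33 for WT replicate 1, the stem cell surface sums of these 2 libraries were no longer separated. The HSC surface and signalling list, given above by its sums, had 7 of 26 tested members above 0 and a median of -0.80. Its groups did not overlap in 5 members, all lower in P216L, against 4.69% of all genes that were lower without overlap. Mmrn1, multimerin 1, a secreted protein of platelets and HSC, had 1771, 146 and 432 CPM in P216L HSC and 1078, 2357 and 1934 CPM in WT HSC. Its P216L replicate 1 lay within the WT range. Tgm2, a transglutaminase, had 0, 41.8 and 133 CPM in P216L HSC and 350, 660 and 152 CPM in WT HSC. With P216L replicate 3 left out, 6 of 26 members were above 0 and the median minus that of all genes was -0.35, against -0.93 with all libraries and -1.66 without P216L replicate 2.

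Transcription factors of HSC summed to 3419, 3380 and 1676 CPM in P216L HSC and 5529, 3939 and 4473 CPM in WT HSC, against 559 to 613 CPM in MEP. Of 23 tested members 7 were above 0 and 14 below, and 0 were called. The median minus that of all genes was -0.44, and it was 0.06 without P216L replicate 3 and -1.27 without P216L replicate 2. Meis1, a homeobox factor that maintains HSC, had 278, 258 and 183 CPM in P216L HSC and 423, 678 and 670 CPM in WT HSC. Gata2, needed for HSC survival, had 0, 144 and 171 CPM in P216L HSC and 1151, 168 and 260 CPM in WT HSC, with overlap. Prdm16 was low in both, at 0, 11.9 and 0 CPM in P216L HSC and 13.2, 190 and 10.4 CPM in WT HSC.

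Megakaryocyte and platelet genes summed to 1953, 2507 and 1973 CPM in P216L HSC and 4563, 4046 and 3630 CPM in WT HSC, against 1287 to 1435 CPM in MEP. On library totals the P216L sums were close to each other and all below WT. Of 18 tested members 5 were above 0, the median was -1.27 and 0 were called. That median minus the median of all genes was -1.40, and -0.91 without WT replicate 1. Itgb3, the beta chain of the platelet fibrinogen receptor, had 0, 5.97 and 0 CPM in P216L HSC and 317, 232 and 81.2 CPM in WT HSC. Rab27b, a GTPase of platelet granule secretion, was at 0 in P216L HSC and had 463, 158 and 27.1 CPM in WT HSC, at least 151-fold lower, with an adjusted p of 0.33 in edgeR. Vwf, von Willebrand factor, was at 0 in P216L HSC and had 0, 0 and 233 CPM in WT HSC. Vwf thus rests on 1 WT library.

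The platelet cytoskeleton list summed to 6672, 8534 and 6875 CPM in P216L HSC and 14827, 11150 and 10022 CPM in WT HSC. Of 30 tested members 10 were above 0, and the median was -0.81. Arpc1b, a subunit of the Arp2/3 complex that branches actin, had 429, 559 and 301 CPM in P216L HSC and 1521, 882 and 876 CPM in WT HSC. Arap1, which regulates small GTPases of actin and membrane traffic, had 0, 10.7 and 2.35 CPM in P216L HSC and 1250, 485 and 343 CPM in WT HSC. The log2 fold change of Arap1 was -6.89 ± 1.94 (SE), with an adjusted p of 0.12 in edgeR. Cyfip1, part of the WAVE complex, was at 0 in P216L HSC and had 0, 249 and 489 CPM in WT HSC, with an adjusted p of 0.070 in edgeR.

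Antigen presentation by MHC class I summed to 9990, 10768 and 6190 CPM in P216L HSC and 15614, 12939 and 11896 CPM in WT HSC. Of 23 tested members 3 were above 0 and 20 below, the median was -0.74 and 0 were called. Minus the median of all genes it was -0.87, and -0.46 without P216L replicate 3. H2-D1, a classical class I heavy chain, had 1488, 2289 and 1416 CPM in P216L HSC and 3055, 3831 and 2358 CPM in WT HSC, with an adjusted p of 0.49 in edgeR. Class I heavy chains are near-identical in part, so counts could be split among them. Interferon-stimulated genes overlapped, at 5106, 2968 and 1775 CPM in P216L HSC and 5919, 3851 and 3576 CPM in WT HSC, with 8 of 26 above 0.

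Immediate early genes, which respond within minutes to stimuli and to cell handling, differed widely between libraries of a genotype. They summed to 8142, 2019 and 1113 CPM in P216L HSC and 17981, 7087 and 2562 CPM in WT HSC, with overlap. Of 18 tested members 3 were above 0, the median was -1.11 and 0 were called. Minus the median of all genes it was -1.24, and it was -0.37 without WT replicate 1, -0.54 without P216L replicate 3, -2.19 without WT replicate 3 and -3.38 without P216L replicate 1. Fos had 411, 43.0 and 109 CPM in P216L HSC and 2440, 777 and 202 CPM in WT HSC. Its log2 fold change was -2.46 ± 0.93 (SE), with an adjusted p of 0.37 in edgeR. Klf6 had 36.9, 15.5 and 8.23 CPM in P216L HSC and 99.2, 1116 and 231 CPM in WT HSC, without overlap. Jun was the highest gene of WT replicate 1, with 2295, 146 and 45.9 CPM in P216L HSC and 5330, 1501 and 643 CPM in WT HSC. Glucocorticoid-responsive genes summed to 4603, 4430 and 1975 CPM in P216L HSC and 12611, 6269 and 4787 CPM in WT HSC, with 9 of 18 above 0.

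**Figure D4:**
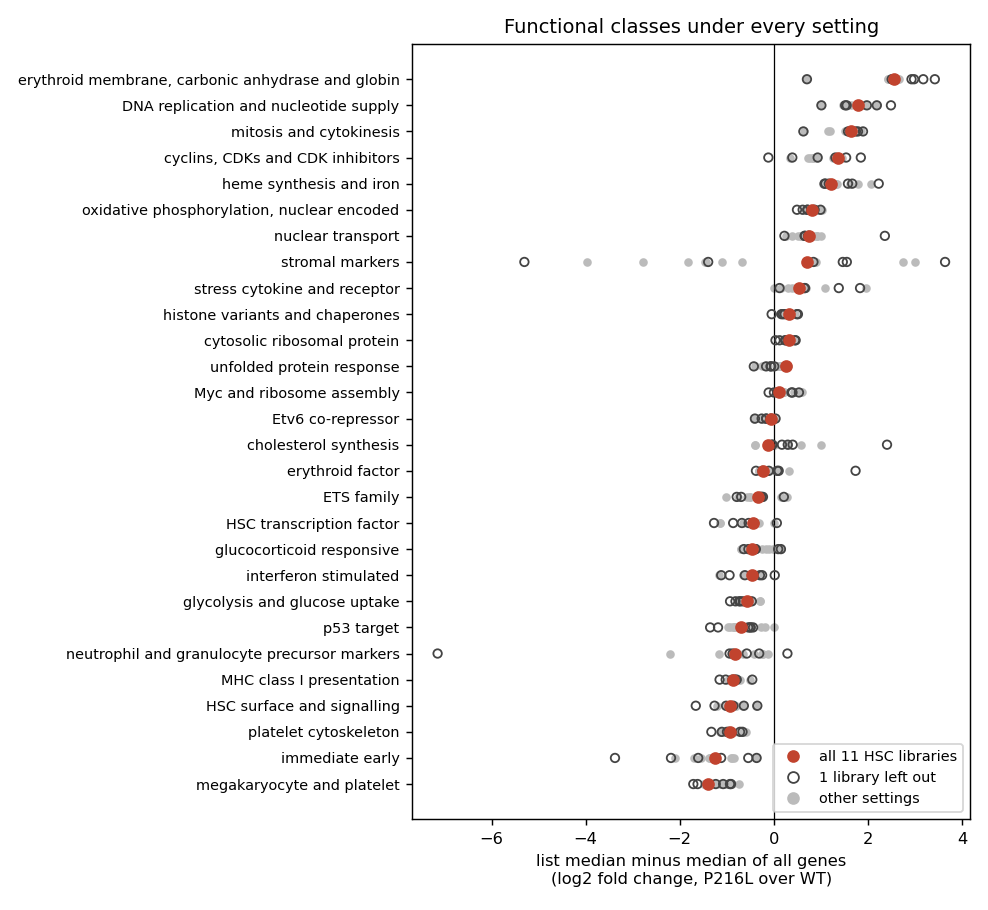
Median log2 fold change (P216L over WT) of each gene class minus the median of all genes tested, with all 11 HSC libraries (red), with 1 library left out (open circles) and under other settings (grey). The erythroid membrane, carbonic anhydrase and globin, replication and mitosis classes lie right of 0 and megakaryocyte, platelet cytoskeleton, HSC surface and MHC class I classes left of 0 in every setting shown, while stromal markers lie on either side.

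The 10 genes with the smallest p among those lower in P216L HSC were Cyfip1, Tsc22d3, Arap1, Gemin4, Serpine2, Gbp4, Vps11, Tnfaip3, Ube4b and Klrb1c, and none was called. Tsc22d3, a glucocorticoid-induced leucine zipper protein, was the best counted of them. It had 872, 1141 and 458 CPM in P216L HSC and 3717, 3185 and 2914 CPM in WT HSC, with means of 824 ± 344 CPM in P216L HSC and 3272 ± 408 CPM in WT HSC (SD, n = 3 each). Its log2 fold change was -1.84 ± 0.50 (SE), with an adjusted p of 0.098 in edgeR. Vps11, a subunit of the complexes that tether membranes to endosomes and lysosomes, was at 0 in P216L HSC and had 291, 195 and 304 CPM in WT HSC, at least 184-fold lower (adjusted p = 0.14, edgeR). Ube4b, a ubiquitin ligase, was also at 0 in P216L HSC and had 284, 366 and 79.1 CPM in WT HSC. Cyfip1, Gemin4, Serpine2, Gbp4, Tnfaip3 and Klrb1c were at 0 in all P216L libraries and in at least 1 WT library, and Gbp4 had counts in WT replicate 1 alone, at 1296 CPM.

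Next to the called genes stood 5 with the smallest p that were higher and not called. Sec24c, a cargo adaptor of COPII vesicles, had 879, 196 and 487 CPM in P216L HSC and 6.61, 2.44 and 4.16 CPM in WT HSC, with an adjusted p of 0.062 in edgeR. Pacsin2, a membrane-shaping protein, had 0, 83.6 and 527 CPM in P216L HSC and 0, 0 and 4.16 CPM in WT HSC. Fancd2, of the Fanconi DNA repair pathway, had 1219, 1.19 and 0 CPM in P216L HSC and was at 0 in WT HSC, so it rests on P216L replicate 1. Pus7, a pseudouridine synthase, had 1071, 89.5 and 92.9 CPM in P216L HSC and was at 0 in WT HSC. Nxpe2 had 569, 41.8 and 188 CPM in P216L HSC and was likewise at 0 in WT HSC.

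Detection itself differed from library to library. Of the tested genes, 1169 were at 0 in all 3 WT libraries, and 126 of these were seen in all 3 P216L libraries. The reverse held for 683 genes at 0 in all 3 P216L libraries, of which 74 were seen in all 3 WT libraries. As shares of their sets these are 10.8% and 10.8%. Both sets include tested genes with no count in any of the libraries compared, which passed the filter through the other HSC genotypes.

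The 939 genes with at least 10 counts in all 6 libraries gave a view that does not rest on zeros. Their median log2 fold change was 0.10, and groups did not overlap in 69 genes (7.35%) that were higher and 67 genes (7.14%) that were lower in P216L HSC. After H2az1, the widest upward gaps were those of Dtymk, Anp32b, Nono, Sf3b4, Hnrnpc, Wbp11 and Rbbp7. Dtymk, thymidylate kinase, which serves dTTP synthesis, had 781, 193 and 369 CPM in P216L HSC and 66.1, 34.1 and 45.8 CPM in WT HSC. Anp32b, an acidic nuclear histone-binding protein, had 429, 405 and 956 CPM in P216L HSC and 112, 151 and 148 CPM in WT HSC. Nono, Sf3b4, Hnrnpc and Wbp11 encode RNA-binding or splicing proteins, and Rbbp7 a histone-binding subunit of several chromatin complexes. Sf3b4 had the most even values of these, with 266, 238 and 258 CPM in P216L HSC and 112, 48.7 and 97.8 CPM in WT HSC. Apart from H2az1 none of the 8 was called, and their adjusted p in edgeR ran from 0.28 for Rbbp7 to 0.71 for Sf3b4.

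The widest downward gaps were those of Wls, Slc44a2, Tgs1, Sar1a, Dock2, Afap1l1, Tsc22d3 and Sh3bgrl3. Wls, which carries Wnt proteins to the cell surface, had 24.6, 15.5 and 80.0 CPM in P216L HSC and 403, 987 and 635 CPM in WT HSC. Its log2 fold change was -3.86 ± 1.43 (SE), with an adjusted p of 0.35 in edgeR. Slc44a2, a choline transporter, had 64.0, 97.9 and 34.1 CPM in P216L HSC and 463, 407 and 497 CPM in WT HSC. Dock2, a Rac activator of blood cells, had 32.0, 234 and 118 CPM in P216L HSC and 628, 1033 and 916 CPM in WT HSC. The WT values of Slc44a2 were even, and all 8 genes had counts in every library.

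**Figure D5:**
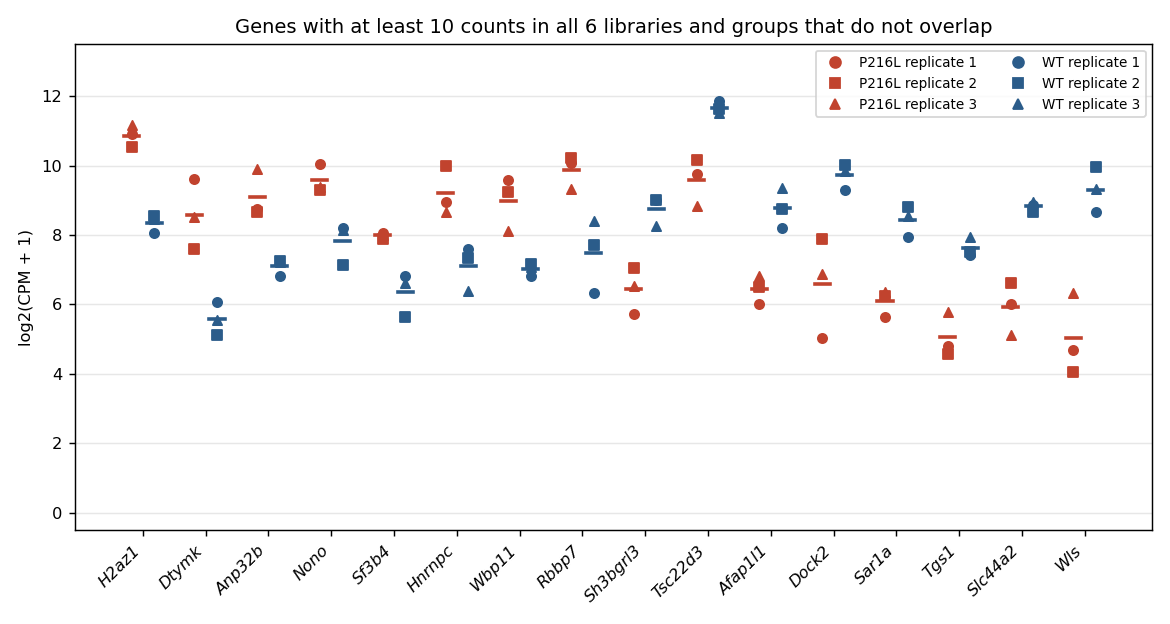
Levels as log2(CPM + 1) of the genes with at least 10 counts in all 6 HSC libraries and the widest gap between the groups, 8 higher and 8 lower in P216L, with P216L left of WT; points are libraries and bars the mean of log2(CPM + 1) over 3 libraries. Of these 16 genes only H2az1 was called.

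Markers of other blood and marrow cells were mostly low, and their sums overlapped between the genotypes. B cell markers summed to 0, 57.3 and 81.2 CPM in P216L HSC and 0, 29.2 and 4.16 CPM in WT HSC, and Cd79a was at 0 in all 6. T and NK cell markers summed to 224, 80.0 and 0 CPM in P216L HSC and 575, 139 and 43.7 CPM in WT HSC. Macrophage markers summed to 0, 258 and 425 CPM in P216L HSC and 238, 95.1 and 45.8 CPM in WT HSC, and the iron exporter Slc40a1, which erythroid cells also express, made up 399 CPM of the highest. Mast cell and basophil markers ran from 0 to 24.7 CPM in P216L HSC and from 0 to 108 CPM in WT HSC. Endothelial markers ran from 144 to 626 CPM in P216L HSC and from 224 to 807 CPM in WT HSC. Monocyte markers ran from 205 to 1534 CPM in P216L HSC and from 285 to 582 CPM in WT HSC. Neutrophil markers ran from 236 to 1247 CPM in P216L HSC and from 651 to 1753 CPM in WT HSC, with Ctsg at 0 in all 6. None of these 7 lists held a called gene, but few of their members were tested. Tested members numbered 3 for B cell, 4 for T and NK cell, 4 for macrophage and 0 for mast cell and basophil markers. They numbered 8 for endothelial, 6 for monocyte and 12 for neutrophil markers.

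The remaining lists also held no called gene. Members above 0 numbered 7 of 14 for the ETS family, 8 of 16 for Etv6 co-repressors, 7 of 22 for glycolysis, 5 of 13 for p53 targets, 12 of 22 for the unfolded protein response, 9 of 19 for cholesterol synthesis and 9 of 13 for stress cytokines and receptors. Among partners of Etv6 repression, Kdm1a, a histone demethylase, had 0, 109 and 40.0 CPM in P216L HSC and 145, 634 and 167 CPM in WT HSC. Tbl1xr1, of the NCoR complex, had 0, 10.7 and 4.71 CPM in P216L HSC and 112, 41.4 and 148 CPM in WT HSC. Both were separated, with an adjusted p of 0.52 in edgeR.

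The same genes were read in the other Etv6 genotypes. The comparisons of S211I and of the double mutant use the same 3 WT libraries, so they are not independent, and values are given side by side. Rrm1 had 771 and 1257 CPM in HSC of S211I and 549, 319 and 758 CPM in HSC of the double mutant, all above the WT HSC values of at most 58.3 CPM. H2az1 had 1271 and 2405 CPM in S211I HSC and 1699, 1023 and 2218 CPM in the double mutant, against at most 370 CPM in WT HSC. Mcm2 had 43.0 and 905 CPM in S211I HSC and 189, 86.6 and 730 CPM in the double mutant, so that 1 S211I library lay within the WT range, which reached 64.5 CPM. Mtfr1 had 498 and 241 CPM in S211I HSC and 3.85, 249 and 695 CPM in the double mutant, against 0 in WT HSC. The second S211I library held 13154030 counts and had a correlation of 0.977 with the mean MEP library, against 0.270 to 0.653 for the other HSC libraries. Rrm1 and H2az1 were higher in all 8 mutant HSC libraries, this MEP-like one included, than in any WT HSC library. Both genes were also high in WT MEP, as given below.

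In MEP, Rrm1, H2az1 and Mtfr1 lay in a narrow range in both genotypes. Rrm1 had 1212, 1127 and 1119 CPM in P216L MEP and 1232 and 1245 CPM in WT MEP. H2az1 had 2634, 2349 and 3054 CPM in P216L MEP and 2837 and 2492 CPM in WT MEP. Mtfr1 had 223, 222 and 233 CPM in P216L MEP and 238 and 205 CPM in WT MEP. The P216L HSC values of Rrm1 and H2az1 lay nearer to the MEP values than the WT HSC values did. Summed replication genes were 15970 to 17551 CPM in P216L MEP and 17127 to 17762 CPM in WT MEP, and summed oxidative phosphorylation genes were 17934 to 21767 CPM in P216L MEP and 17908 to 18623 CPM in WT MEP.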

How the data were processed

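Values are the deposited estimated counts of Entrez genes, and Salmon, FastQC and the assembly GRCm39 are named per the submitters' processing notes. Tool versions and use of strand are not given in the sources used. Of its nonzero values 6.09 to 33.07% per library are not whole numbers, and all were rounded. Of 30519 genes, 30211 took a symbol from RefSeq (GRCm38.p6), and the other 308 held 0.044% of the counts. Total depth was 151215 to 850139 counts in the 6 libraries compared.

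The 11 HSC libraries in 4 groups were fitted together with edgeR 4.0.16 (limma 3.58.1, R 4.3.3), using TMM size factors, filterByExpr (minimum count 10, minimum total 15) and robust quasi-likelihood tests, with Benjamini-Hochberg adjustment over 9471 genes at 0.05. The biological coefficient of variation was 1.60. CPM values use library totals alone. Fold changes are P216L over WT. SE is the size of the log2 fold change over the root of the F statistic. For genes at 0 in a group, the bound assumes 3 counts in the sum of that group, over its pooled total, and a level shared by its libraries. Intervals (95%, exact Poisson) and bounds cover counting error only.

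Gene lists are described by counts, sums and medians, with no test. Members and lists were chosen with earlier results of these data known. Named genes are the called genes, the 10 lowest p among lower genes, the next 5 among higher ones, the 2 lowest p of each list, the 8 widest gaps in each direction among genes with 10 counts in all 6 libraries, and Etv6; others were named after their values were seen. No replicates were duplicates (chi-square per degree of freedom 30.0 to 70.6). Alternatives were RLE size factors, other filters, a Y-linked covariate, the replicate number as a block, DESeq2 1.42.0, voom with quality weights, a fit of the 2 groups alone, omitting the library labelled S211I replicate 2, thinning and leaving out each library. A fit without the 3 HSC libraries nearest to MEP was added after the data were seen. The tests were tried on simulated data.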

Additional observations from a re-analysis of the deposited data

Results flagged for a closer look

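For 7 of the 93 named genes the P216L and WT libraries did not overlap in HSC and did not overlap in the opposite direction in MEP. Many named genes were chosen for separation in HSC and WT MEP has 2 libraries, so separation in MEP is easily met. The difference between HSC and MEP was not tested for any of them. Rrm1 averaged 1153 CPM in P216L MEP and 1239 CPM in WT MEP, against 890 CPM in P216L HSC and 24.6 CPM in WT HSC. Rrm2 averaged 656.2 CPM in P216L MEP and 805.8 CPM in WT MEP, and Fech 815.8 CPM in P216L MEP and 954.3 CPM in WT MEP. Both were higher in P216L HSC. Cldn13 averaged 223.1 CPM in P216L MEP and 280.7 CPM in WT MEP, and E2f2 12.66 CPM in P216L MEP and 23.4 CPM in WT MEP. Both were at 0 in WT HSC. Wls averaged 7.107 CPM in P216L MEP and 4.136 CPM in WT MEP, and Sh3bgrl3 36.38 CPM in P216L MEP and 24.19 CPM in WT MEP. Both were lower in P216L HSC. The MEP differences were small beside those in HSC.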

How the results depend on the processing

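The 10 calls depended on the processing. Calls numbered 18 with RLE size factors (15 higher and 3 lower, 83.3% higher, with the median of all genes moved to -0.02), 0 with no low-count filter, 0 when 10 counts were asked for in at least 3 of the 6 libraries, and 0 when the 2 groups were fitted alone. In edgeR these last 3 fits had 1072, 236 and 170 genes at an unadjusted p under 0.05. DESeq2 called 301 genes (180 higher and 121 lower, 59.8% higher) and voom 36 (29 higher and 7 lower). The fit that omits the library labelled S211I replicate 2 called 8 genes higher and 1 lower, the Y-linked covariate 11, and thinning to 151215 counts 2 (2 higher). Without the 3 HSC libraries nearest to MEP there were 2 calls, 1 higher and 1 lower, and 0 of the 10 called genes among them. Leaving out 1 library gave 4 to 25 calls, 3 to 25 higher and 0 to 2 lower. Without WT replicate 3 it was 25, without P216L replicate 2 it was 16, without P216L replicate 1 it was 9, without P216L replicate 3 or WT replicate 2 it was 5, and without WT replicate 1 it was 4. Rrm1 and H2az1 were called in 12 of 17 alternatives each, Rrm2 in 9, Mcm2 in 8, Mtfr1 in 8 of 15, Fech, Kpna2 and Nde1 in 6, Golm1 in 5 of 15 and Racgap1 in 4. The causes were not tested.

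Same-numbered P216L and WT libraries correlated in their deviations at 0.026, 0.0070 and 0.032, under 0.1. Each P216L library correlated best with its own number. At a biological coefficient of variation of 1.60, values this weak cannot decide whether the numbers pair the libraries. With the replicate block there were 12 calls, 11 higher and 1 lower, of which 6 were among the 10. With 1 library left out, the log2 fold change of Plk2 ran from -9.79 to 6.76 (the highest without WT replicate 3), that of Nkg7 from -9.33 to 7.23 (without WT replicate 1) and that of Cd79b from -6.96 to 1.72. It was 0.57 for Cd79b with the Y-linked covariate and 0.45 without the 3 libraries nearest to MEP. Genes with no counts left in either group got no value. Depth is 1 limit on detection, since by counting error alone a gene at 0 in WT replicate 1 could still be at 19.8 CPM.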
